A study of Mus musculus with 6 samples.

Results

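Collagens, laminins and integrins build and read the extracellular matrix, the mesh of secreted protein on which retinal cells rest. The genes described here were taken from the deposited table by name: every listed gene whose symbol begins as a collagen chain, a laminin chain or an integrin subunit, together with the nidogens, fibronectin, perlecan, agrin, the SPARC genes, tenascin-C and dystroglycan. This gave 60 genes of 11339. The same rule finds 96 names in the GENCODE vM21 annotation, and the other 36, among them Col1a1, Col5a2, Col6a3, Lama3, Lamb3, Itgb3 and Itgb4, were not analysed here. The authors kept genes with a CPM (reads scaled to the library total) over 5 in at least 5 of 6 libraries, so that no gene could pass through 1 genotype alone. A pair of the 60 matched by name but belong to neither family: Col4a3bp encodes a ceramide transfer protein and Itgb1bp1 a protein that binds the tail of integrin β1.

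RNA was sequenced from the retinas of mice at P14 (postnatal day 14) in 3 Mll1KO and 3 WT samples, each pooled from a pair of retinas. Mll1KO mice were C57Bl/6J, homozygous for a floxed Mll1 allele (MLL1 fl/fl) and carried Chx10-Cre, which is active in retinal progenitor cells. Vessels and astrocytes come from other lineages. WT mice were wild type C57Bl/6J of the same age, and no Cre-negative littermates are among the samples. The read totals to which libraries were scaled were inferred from the deposited values and may differ from the number of reads sequenced. They were 23836033 in WT sample a, and 19777205 and 19323512 in WT samples b and c. For Mll1KO samples a, b and c they were 23348923, 19855963 and 17961097. In each library 98.4% of this total lay on genes of the table. Each gene is given as RPKM (reads per kilobase of gene length, scaled to the library total), and 3 values in a row belong to samples a, b and c in that order. Differences are given as the log2 fold change of Mll1KO over WT on log2(RPKM + 1), a scale that understates changes of weakly expressed genes. A gene is called where limma gives a Benjamini-Hochberg adjusted p under 0.05 over all genes of the table. The labels do not say whether the samples came from separate litters, and p-values measure the spread between these samples.

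Kmt2a (the current symbol of Mll1, ENSMUSG00000002028), the targeted gene, measured 36.1, 36.9 and 34.6 RPKM in WT and 22.9, 20.4 and 22.3 RPKM in Mll1KO. Every Mll1KO sample lay below every WT sample, at 60.9% of the WT mean (log2 fold change -0.69 ± 0.050 (SE), limma adjusted p = 2.77e-05). The value covers the whole gene and not only the floxed exons.

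Basement membranes are thin sheets in which a network of type IV collagen and a network of laminin are joined by nidogen, perlecan and agrin. In the retina such sheets form the inner limiting membrane, on which Müller glial endfeet and astrocytes rest, and the sleeves of blood vessels, while Bruch's membrane lies beneath the pigment epithelium. Cells hold on to them through integrins, which are pairs of an α and a β chain, and through dystroglycan.

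Of the 60 genes, 34 were called (56.7%), against 2643 of 11339 in the whole table (23.3%). Without WT sample b these counts were 33 and 1704, and without Mll1KO sample c 31 and 1757. With all libraries, expression was higher in Mll1KO for 19 of the 34, where 8.81% of all genes were called higher, and lower for 15, where 14.5% of all genes were called lower (1644 genes, and 1030 without WT sample b and 1053 without Mll1KO sample c). The median log2 fold change was 0.027 over these genes and -0.030 over the table. Without Mll1KO sample b the median of these genes was -0.017, so that 1 library reverses its sign. Of the called genes among all 11339, 37.8% were higher in Mll1KO, and 51.9% under TMM, 53.1% under median ratio and 51.2% under upper quartile scaling, each of which called 20 of the 60 genes higher and 12 lower. The median size without regard to sign was 0.25, against 0.093 in the table. In 39 of the 60 (65%) the groups did not overlap, against 41.1% of all genes. Among called collagens more rose than fell (15 higher and 5 lower of 31), called laminins divided (2 higher and 3 lower of 7), and every integrin that was called fell (4 of 11, of which Itgb1 is not called under TMM, median ratio or upper quartile scaling). No called gene changed direction in any of 17 alternative analyses, and 29 of the 34 were called in each. Whole retinas were measured, and fewer cells of a type and less RNA per cell cannot be told apart.

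**Figure D1:**
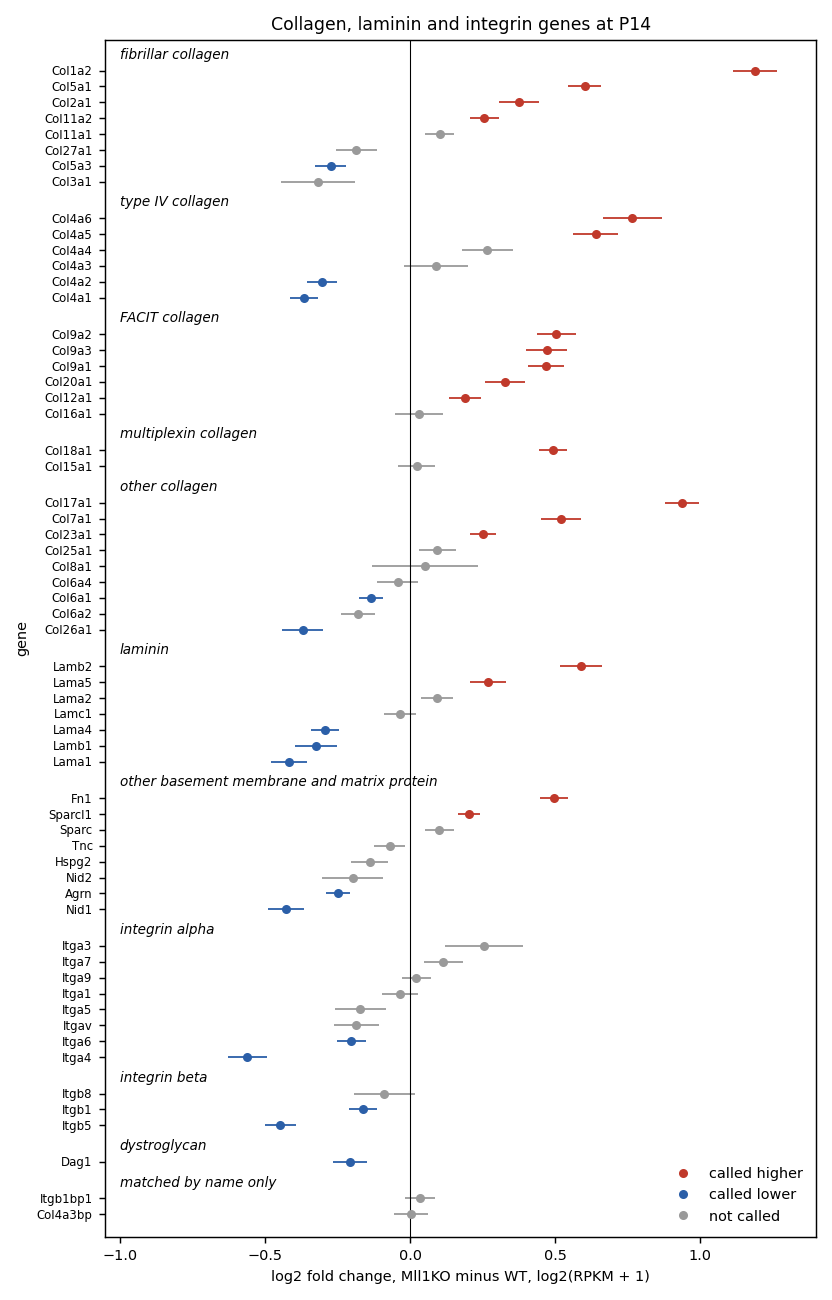
Log2 fold change of Mll1KO over WT on log2(RPKM + 1) on the horizontal axis for each of the 60 genes, grouped by role; bars are the standard error, red and blue mark genes called higher and lower by limma, grey those not called. The points run from -0.56 for Itga4 to 1.19 for Col1a2.

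Among fibrillar collagens, which assemble into the ropes of connective tissue and vitreous, 4 of 8 rose and 1 fell. Col1a2, the α2 chain of type I collagen, had the highest log2 fold change of all 60 genes. Its RPKM was 1.96, 1.70 and 2.20 in WT and 5.58, 5.34 and 6.24 in Mll1KO. The groups lay far apart, with a mean 2.93 times that of WT (log2 fold change 1.19 ± 0.076 (SE), limma adjusted p = 1.32e-05), and the fewest reads behind a value were 407. Col5a1, a minor chain that sets the width of type I fibrils, read 2.94, 2.89 and 3.10 RPKM in WT and 4.76, 5.37 and 4.99 RPKM in Mll1KO. It too was higher in every Mll1KO sample (log2 fold change 0.60 ± 0.057 (SE), limma adjusted p = 1.14e-04). Col5a3, another type V chain, was at 4.46, 4.60 and 4.53 RPKM in WT and at 3.40, 3.53 and 3.79 RPKM in Mll1KO. Here the order was the opposite, with the Mll1KO samples lowest (log2 fold change -0.27 ± 0.054 (SE), limma adjusted p = 0.00597), so that 2 chains of type V collagen changed in opposite directions.

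Col2a1, the main fibril collagen of cartilage and vitreous, was at 33.5, 41.2 and 36.3 RPKM in WT and at 47.8, 50.3 and 46.1 in Mll1KO. WT sample b came closest to Mll1KO, and the groups did not overlap (log2 fold change 0.37 ± 0.069 (SE), limma adjusted p = 0.00415). Its partner Col11a2 measured 6.34, 6.38 and 6.77 RPKM in WT and 7.79, 8.14 and 7.90 RPKM in Mll1KO. Every Mll1KO value exceeded every WT value (log2 fold change 0.25 ± 0.050 (SE), limma adjusted p = 0.00588). Col11a1, the other type XI chain here, had 3.66, 3.87 and 3.79 RPKM in WT and 4.01, 4.18 and 4.18 in Mll1KO. These groups did not overlap either, yet the gene was not called (log2 fold change 0.10 ± 0.051 (SE), limma adjusted p = 0.178). Col27a1, a fibrillar chain of cartilage, was not called although its groups did not overlap (log2 fold change -0.19 ± 0.072 (SE), limma adjusted p = 0.0902), and limma-voom on reads gave it an adjusted p of 0.0399 (range over its alternatives 0.0399 to 0.415).

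Col3a1, the type III chain of vessels and other soft connective tissue, is a case in which 1 library decides the call. It read 1.62, 0.871 and 1.74 RPKM in WT and 1.03, 0.944 and 0.754 RPKM in Mll1KO. WT samples a and c were high while WT sample b lay among the Mll1KO samples, and the gene was not called (log2 fold change -0.32 ± 0.13 (SE), limma adjusted p = 0.0998). Without WT sample b the log2 fold change was -0.49 and the gene was called (limma adjusted p = 0.00322, range over its alternatives 0.00322 to 0.322).

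Type IV collagen makes the basement membrane network, and its 6 chains lie in the genome as 3 head-to-head pairs, read in opposite directions from neighbouring starts. The chains join as α1α1α2, the common form, as α3α4α5 and as α5α5α6. Col4a1 and Col4a2 start 21 bases apart on chromosome 8 in GRCm38 and overlap at their 5′ ends, Col4a3 and Col4a4 72 bases apart on chromosome 1, and Col4a5 and Col4a6 1309 bases apart on chromosome X. Col4a1 and Col4a2 both fell, Col4a5 and Col4a6 both rose, and neither Col4a3 nor Col4a4 was called.

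Col4a1 (ENSMUSG00000031502) had 26.6, 27.4 and 26.8 RPKM in WT and 19.4, 20.9 and 21.8 RPKM in Mll1KO. The WT samples lay close together and Mll1KO sample a was lowest (log2 fold change -0.37 ± 0.048 (SE), limma adjusted p = 6.89e-04). Col4a2 (ENSMUSG00000031503) followed with 26.8, 26.6 and 27.9 RPKM in WT and 20.2, 22.3 and 22.9 in Mll1KO. Again the groups were apart and Mll1KO sample a was lowest (log2 fold change -0.30 ± 0.052 (SE), limma adjusted p = 0.00282). These chains were the most abundant of type IV in both genotypes.

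Col4a5 (ENSMUSG00000031274) was at 3.93, 4.22 and 4.36 RPKM in WT and at 6.32, 8.00 and 6.91 RPKM in Mll1KO. Mll1KO sample b was highest and the groups did not overlap (log2 fold change 0.64 ± 0.077 (SE), limma adjusted p = 4.27e-04). Col4a6 (ENSMUSG00000031273) read 1.38, 1.38 and 1.99 RPKM in WT and 2.92, 3.76 and 3.46 RPKM in Mll1KO. WT sample c stood above the other WT samples but below every Mll1KO sample, and the mean was 2.14 times that of WT (log2 fold change 0.77 ± 0.10 (SE), limma adjusted p = 6.91e-04). Col4a3 had 1.38, 1.17 and 1.35 RPKM in WT and 1.15, 2.01 and 1.25 in Mll1KO, where only Mll1KO sample b lay above the WT samples (log2 fold change 0.089 ± 0.11 (SE), limma adjusted p = 0.609). Its exons share 5.65% of their bases with C430014B12Rik on the other strand. Without Mll1KO sample b its log2 fold change was -0.062. Col4a4 read 1.28, 1.02 and 1.37 RPKM in WT and 1.42, 2.01 and 1.62 in Mll1KO. All its Mll1KO values were above its WT values, with Mll1KO sample b again highest, and the gene missed the threshold (log2 fold change 0.27 ± 0.087 (SE), limma adjusted p = 0.0528). It was called without Mll1KO sample a (limma adjusted p = 0.0241) and in 5 other alternatives, over a range of 0.0241 to 0.173.

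A ratio of 2 genes within a library does not depend on how libraries are scaled. The RPKM of Col4a5 over that of Col4a1 was 0.148, 0.154 and 0.163 in WT and 0.327, 0.382 and 0.318 in Mll1KO. For Col4a6 over Col4a2 the ratios were 0.0514, 0.0518 and 0.0715 in WT and 0.145, 0.168 and 0.151 in Mll1KO. Both ratios were higher in each Mll1KO sample than in any WT sample, and they were chosen after the values were seen and are given without a test.

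**Figure D2:**
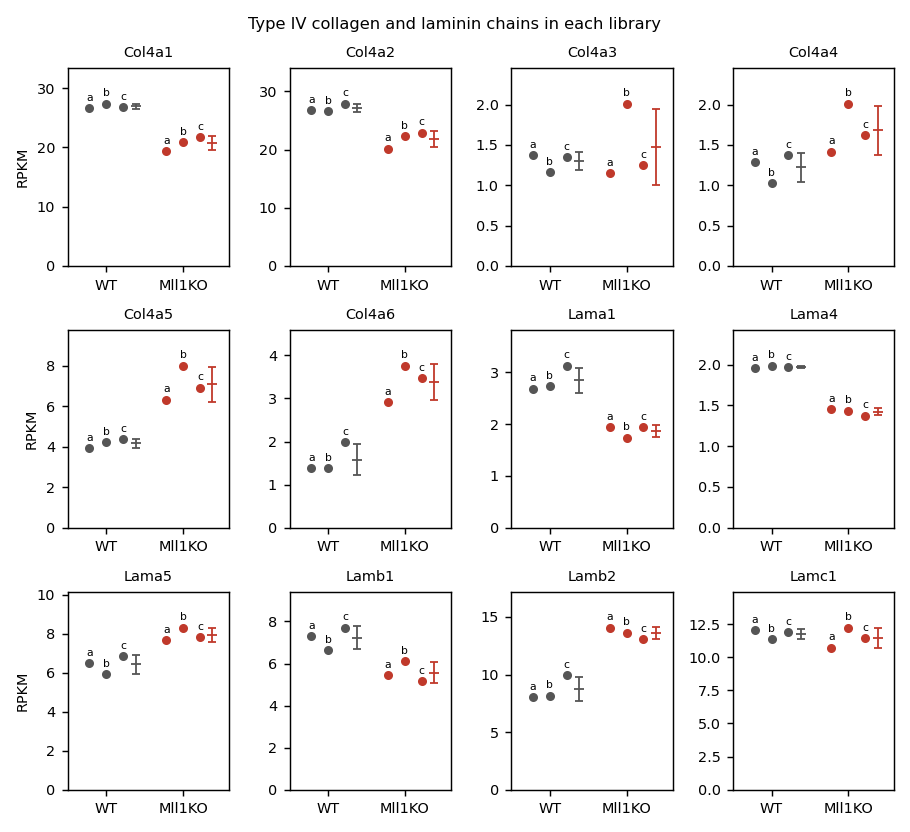
RPKM of the type IV collagen chains and of laminin chains in each library, with WT samples a to c in grey and Mll1KO samples a to c in red; the bar beside each group is the mean with its SD (n = 3). Col4a1, Col4a2, Lama1, Lama4 and Lamb1 lie lower in all 3 Mll1KO samples, and Col4a4, Col4a5, Col4a6, Lama5 and Lamb2 higher. Col4a4 was not called, and Lamc1 overlaps.

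Promoter windows from RefSeq (GRCm38.p6), 300 bases from upstream of a start to just past it, were matched for 46 of the 60 genes, in 53 windows. The letters CCAAT on either strand were found in 19 of these windows (35.8%) and in 37.4% of all 32851 windows. The letters GGGCGG on either strand were found in 38 (71.7%) and in 35.7% of all windows. CpG dinucleotides numbered 13 in the median window of these genes and 7 in the median of all. All windows here means every window of the RefSeq set, not only those of genes that passed the CPM filter. Whether the 60 genes differ in this from other genes of the table was not tested. Where windows overlap, as those of Col4a1 and Col4a2 do, a shared match counts in each. The windows of the called type IV pairs are shown because the genes of each of these pairs moved together. The windows of Col4a1 and Col4a2 share 78 bases, read from opposite strands, and hold 37 and 33 CpG. Those of Col4a5 and Col4a6 share none and hold 11 and 3 CpG. A match describes these letters only. Capitals mark CCAAT and GGGCGG matches on either strand in the windows at chr8:11312777-11313076 (minus strand), chr8:11312555-11312854 (plus strand), chrX:141475169-141475468 (plus strand) and chrX:141474027-141474326 (minus strand), each written 5′ to 3′ on the strand of its gene.
Col4a1: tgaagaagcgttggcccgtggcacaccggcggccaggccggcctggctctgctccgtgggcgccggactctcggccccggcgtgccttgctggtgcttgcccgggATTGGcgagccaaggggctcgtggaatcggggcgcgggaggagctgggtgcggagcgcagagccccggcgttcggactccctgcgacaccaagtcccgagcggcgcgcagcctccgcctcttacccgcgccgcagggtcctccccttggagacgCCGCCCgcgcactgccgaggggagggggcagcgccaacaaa
Col4a2: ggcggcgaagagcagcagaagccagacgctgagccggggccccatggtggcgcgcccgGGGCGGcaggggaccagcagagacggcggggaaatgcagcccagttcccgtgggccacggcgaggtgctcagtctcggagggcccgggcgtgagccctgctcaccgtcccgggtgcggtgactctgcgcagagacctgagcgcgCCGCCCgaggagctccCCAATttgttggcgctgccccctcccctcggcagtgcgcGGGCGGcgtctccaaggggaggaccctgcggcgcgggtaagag
Col4a5: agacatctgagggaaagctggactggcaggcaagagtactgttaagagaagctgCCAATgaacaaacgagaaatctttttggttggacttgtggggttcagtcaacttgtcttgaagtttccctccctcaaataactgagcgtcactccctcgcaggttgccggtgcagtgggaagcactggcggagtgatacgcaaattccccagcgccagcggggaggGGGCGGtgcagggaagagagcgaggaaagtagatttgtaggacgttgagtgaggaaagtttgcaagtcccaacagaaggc
Col4a6: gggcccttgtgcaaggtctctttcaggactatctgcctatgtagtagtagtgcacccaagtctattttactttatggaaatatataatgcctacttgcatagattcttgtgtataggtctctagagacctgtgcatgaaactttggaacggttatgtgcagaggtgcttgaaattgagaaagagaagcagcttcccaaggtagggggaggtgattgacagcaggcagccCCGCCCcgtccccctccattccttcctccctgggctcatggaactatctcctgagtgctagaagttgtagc

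FACIT collagens sit on the surface of other fibrils, and 5 of 6 rose in the limma test. The 3 chains of type IX collagen, the FACIT collagen of type II fibrils in cartilage and vitreous, rose together. Col9a1 was at 40.6, 46.3 and 47.2 RPKM in WT and at 58.4, 63.4 and 64.8 RPKM in Mll1KO. WT sample a was the lowest and the groups were apart (log2 fold change 0.47 ± 0.062 (SE), limma adjusted p = 6.97e-04). Col9a2 read 13.6, 14.5 and 15.9 RPKM in WT and 19.3, 22.3 and 22.0 in Mll1KO, again without overlap (log2 fold change 0.50 ± 0.068 (SE), limma adjusted p = 8.08e-04). Col9a3 had 14.5, 16.1 and 16.6 RPKM in WT and 20.5, 24.6 and 21.7 in Mll1KO. Mll1KO sample b was its highest value and every Mll1KO value exceeded every WT value (log2 fold change 0.47 ± 0.071 (SE), limma adjusted p = 0.00142). Of the Col9a3 exon bases, 6.07% are shared with Tcfl5 on the other strand, and whether counting used strand is not stated.

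Col20a1, another FACIT collagen, measured 9.64, 9.85 and 9.59 RPKM in WT and 14.01, 11.6 and 11.7 RPKM in Mll1KO. Mll1KO sample a was well above the other Mll1KO samples, which were in turn above WT (log2 fold change 0.33 ± 0.068 (SE), limma adjusted p = 0.00760). Without Mll1KO sample a the log2 fold change was 0.25. Col12a1, a collagen of tendon and cornea, read 1.41, 1.51 and 1.54 RPKM in WT and 1.87, 1.68 and 1.95 in Mll1KO. The groups did not overlap, but the call was near the threshold (log2 fold change 0.19 ± 0.055 (SE), limma adjusted p = 0.0348). Left out singly, WT samples a, b and c gave limma adjusted p of 0.107, 0.0809 and 0.0593, and Mll1KO samples a and c 0.0730 and 0.113, so that the call was lost each time (range over its alternatives 0.00867 to 0.113). Col16a1, the last of the FACIT collagens here, was not called (log2 fold change 0.031 ± 0.082 (SE), limma adjusted p = 0.820).

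Col18a1, a basement membrane collagen whose end fragment is endostatin and which is needed at the inner limiting membrane, had 22.3, 23.8 and 24.3 RPKM in WT and 32.0, 34.6 and 33.6 RPKM in Mll1KO. Every Mll1KO sample was higher (log2 fold change 0.49 ± 0.047 (SE), limma adjusted p = 1.16e-04). Its relative Col15a1 stayed between 0.985 and 1.30 RPKM, with overlapping groups (log2 fold change 0.023 ± 0.063 (SE), limma adjusted p = 0.831). Col7a1, the anchoring fibril collagen, read 4.05, 4.90 and 4.78 RPKM in WT and 7.08, 6.69 and 7.18 in Mll1KO. WT sample a was lowest and every Mll1KO value exceeded the WT values (log2 fold change 0.52 ± 0.068 (SE), limma adjusted p = 6.63e-04).

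Col17a1, a collagen that spans the cell membrane and is known from hemidesmosomes, had the second highest log2 fold change. It was at 2.78, 3.175 and 2.75 RPKM in WT and at 6.31, 6.43 and 6.64 RPKM in Mll1KO. The Mll1KO samples lay within a narrow band above WT, at 2.23 times the WT mean (log2 fold change 0.94 ± 0.059 (SE), limma adjusted p = 1.32e-05). Col23a1, another membrane collagen, read 26.7, 25.1 and 24.6 RPKM in WT and 29.4, 31.6 and 30.4 in Mll1KO, without overlap (log2 fold change 0.25 ± 0.046 (SE), limma adjusted p = 0.00406). Col25a1, which also spans the membrane, was not called (log2 fold change 0.094 ± 0.064 (SE), limma adjusted p = 0.315). Col26a1 was at 1.85, 1.94 and 1.72 RPKM in WT and 1.41, 1.17 and 1.01 in Mll1KO. All Mll1KO samples were below WT (log2 fold change -0.37 ± 0.071 (SE), limma adjusted p = 0.00502), and the fewest reads behind a value were 106.

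Type VI collagen forms beaded filaments next to basement membranes. Col6a1 was at 32.3, 31.2 and 32.2 RPKM in WT and at 27.8, 29.3 and 29.8 RPKM in Mll1KO. All Mll1KO values were lower, by little (log2 fold change -0.13 ± 0.041 (SE), limma adjusted p = 0.0434). Left out singly, WT samples a, b and c gave limma adjusted p of 0.0968, 0.0787 and 0.103 and Mll1KO samples a, b and c 0.108, 0.0804 and 0.0640, so that the call was lost each time. It was lost as well under TMM, median ratio and upper quartile scaling (limma adjusted p from 0.0296 to 0.158 over its alternatives). Col6a2 read 3.93, 3.47 and 3.95 RPKM in WT and 3.15, 3.35 and 3.16 in Mll1KO. These groups did not overlap and the gene was not called (log2 fold change -0.18 ± 0.059 (SE), limma adjusted p = 0.0532). It was called without WT sample b (limma adjusted p = 0.0396, range over its alternatives 0.0257 to 0.162). Col6a4, a further type VI chain, was not called (log2 fold change -0.043 ± 0.071 (SE), limma adjusted p = 0.706).

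Laminins are crosses of an α, a β and a γ chain. Of 7 chains, 2 rose and 3 fell, and both the α and the β chains changed in opposite directions. Lama1, the α1 chain of early basement membranes and of the inner limiting membrane, was at 2.68, 2.73 and 3.13 RPKM in WT and at 1.93, 1.74 and 1.95 RPKM in Mll1KO. Every Mll1KO sample was lower (log2 fold change -0.42 ± 0.062 (SE), limma adjusted p = 0.00134). Lama4, the α4 chain of vessels, read 1.95, 1.99 and 1.96 RPKM in WT and 1.46, 1.44 and 1.37 in Mll1KO, with a narrow spread in both groups and no overlap (log2 fold change -0.29 ± 0.048 (SE), limma adjusted p = 0.00216). Lama5, an α chain of mature basement membranes, had 6.47, 5.92 and 6.87 RPKM in WT and 7.66, 8.31 and 7.82 in Mll1KO. It was higher in every Mll1KO sample (log2 fold change 0.27 ± 0.061 (SE), limma adjusted p = 0.0120), with an adjusted p of up to 0.0499 when 1 library was left out.

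Lamb1, the β1 chain, was at 7.31, 6.63 and 7.71 RPKM in WT and at 5.44, 6.10 and 5.15 RPKM in Mll1KO. WT sample b and Mll1KO sample b came closest and the groups did not overlap (log2 fold change -0.32 ± 0.071 (SE), limma adjusted p = 0.00992). Lamb2, the β2 chain known at synapses and in the retina, read 8.07, 8.17 and 9.95 RPKM in WT and 14.1, 13.6 and 13.1 RPKM in Mll1KO. WT sample c was above the other WT samples and below every Mll1KO sample (log2 fold change 0.59 ± 0.073 (SE), limma adjusted p = 5.06e-04). The RPKM of Lamb2 over that of Lamb1 was 1.10, 1.23 and 1.29 in WT and 2.59, 2.24 and 2.54 in Mll1KO, and that of Lama5 over Lama1 was 2.41, 2.17 and 2.20 in WT and 3.96, 4.78 and 4.01 in Mll1KO. Neither ratio overlapped between the genotypes, and both were chosen after the values were seen. Lamc1, the γ chain that these α and β chains can share, was at 12.1, 11.4 and 11.9 RPKM in WT and 10.7, 12.2 and 11.5 in Mll1KO, and the groups overlapped (log2 fold change -0.035 ± 0.055 (SE), limma adjusted p = 0.686). Lama2, the α2 chain of muscle and nerve, was not called (log2 fold change 0.092 ± 0.056 (SE), limma adjusted p = 0.263).

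The nidogens link laminin to type IV collagen. Nid1 was at 7.96, 7.06 and 7.04 RPKM in WT and at 5.11, 5.54 and 4.98 RPKM in Mll1KO. All Mll1KO samples were lower (log2 fold change -0.43 ± 0.063 (SE), limma adjusted p = 0.00127). Nid2 read 7.52, 7.07 and 8.82 RPKM in WT and 5.80, 7.99 and 6.34 in Mll1KO. Its exons share 8.45% of their bases with Rtraf on the other strand. Mll1KO sample b lay within the WT range of Nid2 and the other Mll1KO samples below it, and the gene was not called (log2 fold change -0.20 ± 0.11 (SE), limma adjusted p = 0.206). Without Mll1KO sample b it was called, at a log2 fold change of -0.31 (limma adjusted p = 0.0375, range over its alternatives 0.0375 to 0.495). Perlecan, the heparan sulfate proteoglycan encoded by Hspg2, and the genes described after it were singled out once their values had been seen, as Col11a1, Col4a3 and Lamc1 above were. Its RPKM was 7.17, 6.62 and 6.98 in WT and 5.83, 6.84 and 5.95 in Mll1KO, with Mll1KO sample b among the WT samples (log2 fold change -0.14 ± 0.065 (SE), limma adjusted p = 0.149). Leaving Mll1KO sample b out gave a limma adjusted p of 0.0485 (range over its alternatives 0.0485 to 0.336).

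Agrn, the heparan sulfate proteoglycan that binds laminin to dystroglycan, was at 44.4, 48.2 and 45.2 RPKM in WT and at 38.7, 38.5 and 38.4 RPKM in Mll1KO. The Mll1KO samples were nearly equal and all below WT (log2 fold change -0.25 ± 0.041 (SE), limma adjusted p = 0.00243). Fn1, fibronectin, a ligand of integrins α4β1 and α5β1, read 24.3, 22.7 and 22.0 RPKM in WT and 32.2, 34.3 and 32.0 in Mll1KO. Every Mll1KO value was higher (log2 fold change 0.50 ± 0.049 (SE), limma adjusted p = 1.41e-04). Sparcl1, a glial matricellular protein, was at 82.2, 78.6 and 83.0 RPKM in WT and 91.9, 95.4 and 93.9 in Mll1KO. All values from Mll1KO were higher (log2 fold change 0.20 ± 0.039 (SE), limma adjusted p = 0.00524). Sparc, the most abundant gene of the 60, had 172, 172 and 189.5 RPKM in WT and 187, 189 and 196 in Mll1KO. WT sample c lay among the Mll1KO samples and the gene was not called (log2 fold change 0.10 ± 0.049 (SE), limma adjusted p = 0.167), though it was without WT sample c (limma adjusted p = 0.0494, range over its alternatives 0.0494 to 0.396). Tenascin-C, an adhesion-modulating glycoprotein encoded by Tnc, was not called (log2 fold change -0.070 ± 0.053 (SE), limma adjusted p = 0.3803).

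Among integrin α chains, 2 of 8 were called by limma (25%, near the 23.3% of all genes), both lower. Itga4, whose product pairs with β1 to bind fibronectin and VCAM1, had the lowest log2 fold change of all 60 genes. It was at 6.96, 7.22 and 6.69 RPKM in WT and at 3.90, 4.57 and 4.75 RPKM in Mll1KO. The groups were far apart (log2 fold change -0.56 ± 0.068 (SE), limma adjusted p = 4.53e-04). Of its exon bases, 8.04% are shared with Cerkl on the other strand, which read 9.61, 10.15 and 9.20 RPKM in WT and 5.77, 6.58 and 6.67 in Mll1KO. Cerkl was lower in every Mll1KO sample too (log2 fold change -0.54, limma adjusted p = 3.73e-04), and its part in the value of Itga4 was not tested. Itga6, which makes the laminin receptors α6β1 and α6β4, was at 2.02, 2.06 and 1.97 RPKM in WT and 1.67, 1.57 and 1.63 in Mll1KO. The groups did not overlap (log2 fold change -0.20 ± 0.048 (SE), limma adjusted p = 0.0153), and leaving out WT sample b ended the call (limma adjusted p = 0.0578, range over its alternatives 0.00762 to 0.0806).

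The remaining α chains were not called. Itga3, of the laminin receptor α3β1, was at 8.75, 8.33 and 8.04 RPKM in WT and at 8.92, 13.7 and 8.62 RPKM in Mll1KO. Mll1KO sample b alone stood out and the other 5 samples lay close together (log2 fold change 0.26 ± 0.13 (SE), limma adjusted p = 0.202). Without Mll1KO sample b the log2 fold change was 0.060 (limma adjusted p = 0.525, range over its alternatives 0.112 to 0.770). Itga5, of the fibronectin receptor, read 2.17, 1.76 and 2.62 RPKM in WT and 1.71, 1.83 and 1.89 in Mll1KO. WT sample b lay within the Mll1KO range (log2 fold change -0.17 ± 0.089 (SE), limma adjusted p = 0.195), and without it the gene was called (limma adjusted p = 0.0394, range over its alternatives 0.0394 to 0.587). Itgav, the αv chain, had no overlap between the groups and was called by limma-voom alone among its alternatives (adjusted p = 0.0462, range 0.0462 to 0.271), and 5.90% of its exon bases are shared with Gm13684 on the other strand. Itga1, Itga7 and Itga9, of receptors for collagen, laminin and tenascin, had log2 fold changes of -0.035, 0.12 and 0.022.

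Itgb5, whose product pairs with αv to bind vitronectin, was at 15.8, 17.5 and 17.1 RPKM in WT and at 12.4, 11.6 and 12.2 RPKM in Mll1KO. All Mll1KO samples were lower (log2 fold change -0.45 ± 0.052 (SE), limma adjusted p = 3.58e-04). Itgb1, the β chain of most laminin, collagen and fibronectin receptors, read 17.6, 17.5 and 17.6 RPKM in WT and 14.6, 15.9 and 16.3 in Mll1KO. The WT samples were almost equal, Mll1KO sample a was lowest, and the difference was small (log2 fold change -0.16 ± 0.048 (SE), limma adjusted p = 0.0359). Left out singly, WT samples a, b and c gave limma adjusted p of 0.0766, 0.0964 and 0.0824 and Mll1KO samples a and b 0.0852 and 0.0643. The call of Itgb1 was lost in each of these cases and under TMM, median ratio and upper quartile scaling (limma adjusted p from 0.0225 to 0.122 over its alternatives). Itgb8, another partner of αv, was not called (log2 fold change -0.088 ± 0.11 (SE), limma adjusted p = 0.588), with Mll1KO sample a lowest and Mll1KO sample b highest of all 6 libraries.

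Dystroglycan, encoded by Dag1, binds laminin, agrin and perlecan and is held at Müller glial endfeet by the dystrophin complex. It was at 31.3, 27.2 and 26.9 RPKM in WT and at 24.6, 24.9 and 23.9 RPKM in Mll1KO. WT sample a was well above the other WT samples, and all Mll1KO samples were below WT (log2 fold change -0.21 ± 0.058 (SE), limma adjusted p = 0.0286). Without WT sample a the log2 fold change was -0.14 and the call was lost (limma adjusted p = 0.0517). It was lost too without Mll1KO sample a, b or c, at limma adjusted p of 0.0539, 0.0561 and 0.0954, and under TMM, median ratio and upper quartile scaling (limma adjusted p from 0.0132 to 0.0954 over its alternatives). Neither gene matched by name only was called (Col4a3bp at a log2 fold change of 0.0016 and Itgb1bp1 at 0.034). Itgb1bp1 shares 16.9% of its exon bases with Asap2 on the other strand, which was called lower (log2 fold change -0.25, limma adjusted p = 0.00464), and its part in the value was not tested.

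Mll1KO sample b was the highest Mll1KO library in 30 of the 60 genes and WT sample c the highest WT library in 32. Mll1KO sample a was the lowest Mll1KO library in 36. The same counts were not taken over the whole table, so they describe these libraries and are not shown to be particular to these genes. By more than 0.2 on the log2 scale, Mll1KO sample b exceeded the next Mll1KO library in Col4a3, Col4a4, Col8a1, Nid2, Itga3 and Itgb8, and WT sample c the next WT library in Col4a6, Col6a4, Lamb2 and Nid2. By the same measure WT sample b lay below the other WT libraries in Col3a1 and Itga5, Mll1KO sample a below the other Mll1KO libraries in Col8a1, Itgav and Itgb8 and above them in Col20a1, and Mll1KO sample c below them in Col16a1. Col8a1, singled out after its values were seen and a network collagen of Descemet's membrane and vessels, was at 4.57, 3.73 and 4.07 RPKM in WT and 2.88, 6.34 and 4.23 RPKM in Mll1KO, so that both the lowest and the highest value were from Mll1KO. Its log2 fold change was 0.053, and -0.18 without Mll1KO sample b.

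Some markers of the pigment epithelium moved with these libraries. The list holds 17 genes, of which 10 were measured; Rpe65, Best1 and Lrat were not analysed here. Summed, they gave 391.5, 276 and 497 RPKM in WT and 253, 382 and 263 RPKM in Mll1KO, with Ttr the most abundant. WT samples a and c and Mll1KO sample b were high, with or without Ttr, as they were for Ttr, Rgr, Tyrp1, Dct, Pmel and, by little, Mitf taken singly. For Rrh these samples were high within their genotype, by little, but WT sample c lay below Mll1KO sample a. Krt18 was called higher, and Otx2 and Trpm1, which retinal neurons also express, were called lower. The part of this list in the results was not tested. Pmel, a melanosome protein, read 57.1, 15.1 and 99.4 RPKM in WT and 9.37, 34.0 and 11.0 in Mll1KO, and Rgr, an opsin of the pigment epithelium and Müller glia, 17.0, 13.5 and 20.4 in WT and 15.1, 35.5 and 16.6 in Mll1KO. Acta2, smooth muscle actin, was at 14.5, 3.21 and 22.3 RPKM in WT and 3.99, 3.56 and 3.34 in Mll1KO, high in WT samples a and c as Col3a1 was. With WT sample c and Mll1KO sample b both left out, an alternative chosen after seeing the data, 31 genes were called, 19 higher and 12 lower; Col6a1, Itga6 and Itgb1 were no longer called.

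**Figure D3:**
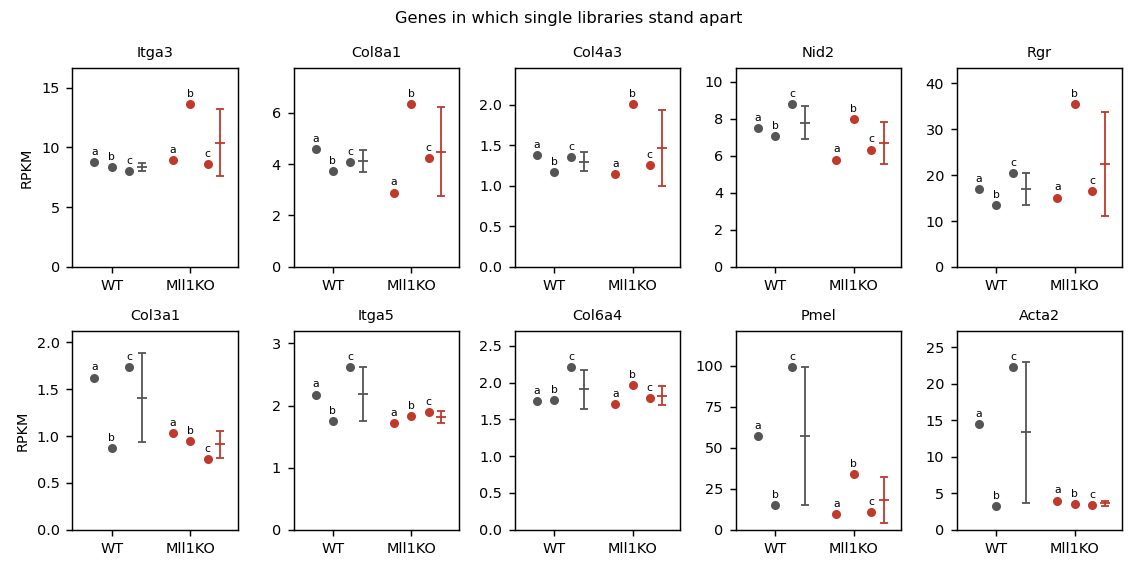
RPKM in each library of genes in which a single library, or WT samples a and c together, stood apart. WT samples a to c are in grey and Mll1KO samples a to c in red, with the mean and its SD (n = 3) beside each group. Mll1KO sample b is high for Itga3, Col8a1, Col4a3 and Rgr, and WT samples a and c for Col3a1, Pmel and Acta2.

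Other cell types that make or hold these proteins were followed by their markers. Summed RPKM of 15 Müller glial markers, led by Glul, was 1592, 1579.8 and 1721 in WT and 1989.8, 2074 and 2042 in Mll1KO. It was higher in every Mll1KO sample, with 7 of the genes called higher and 2 lower. For 7 of 8 astrocyte markers, led by Aldoc, the sums were 195, 182 and 204 in WT and 259.9, 262 and 253 in Mll1KO, again without overlap, and the 4 genes called by limma were all higher. Without Glul and without Aldoc the sums of these lists were likewise higher in every Mll1KO sample. Gfap, the glial filament protein, was at 3.81, 4.40 and 4.16 RPKM in WT and 10.25, 8.50 and 8.42 in Mll1KO (log2 fold change 0.97 ± 0.078 (SE), limma adjusted p = 4.26e-05). Both sums were higher in Mll1KO, as Lamb2 and Sparcl1 were, and their part in the results was not tested. Pdgfra is in the astrocyte list and in the fibroblast list. Of the astrocyte list, Pdgfra, Igfbp5 and Igf1 were not called, with Igf1 at 85.6% of the WT mean, and Pax2 was not analysed here.

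For 14 of 16 endothelial markers, led by Slc2a1, the sums were 219.6, 213 and 228 RPKM in WT and 211, 205 and 199 RPKM in Mll1KO. They were lower in each Mll1KO sample, with 3 genes called higher and 3 lower. Slc2a1 itself was not called, and without it the other 13 markers summed to 116, 114 and 114 in WT and 96.6, 89.9 and 91.3 in Mll1KO. This sum was lower in each Mll1KO sample, as Col4a1, Col4a2 and Lama4 were. Kdr fell furthest of the 13, from a mean of 37.6 RPKM in WT to 22.3 RPKM in Mll1KO. The sum without Kdr as well was not taken. Cldn5 and Tie1 were called lower too, while Flt1, Slco1a4 and Slco1c1 were called higher. Pecam1, Cdh5, Eng, Esam, Egfl7, Ramp2 and Tek were not called, so that the lower sum does not describe most of the list. The part of the endothelial markers in the results was not tested. The 7 measured of 13 pericyte and smooth muscle markers summed to 251, 232 and 262 in WT and 339, 327 and 326 in Mll1KO, most of it Vtn (vitronectin, a ligand of integrin αvβ5), which photoreceptors also express. Vtn alone was at 188, 185 and 195 RPKM in WT and 297, 286 and 281 in Mll1KO (log2 fold change 0.60 ± 0.043 (SE), limma adjusted p = 2.53e-05). It was the only gene of the list called higher, and Rgs5, Cspg4 and Abcc9 were called lower. Pdgfrb, Notch3 and Acta2 were not called, with Pdgfrb at 100.4% of the WT mean and Acta2 high in WT samples a and c only. Without Vtn the sums were 62.6, 47.6 and 67.4 in WT and 42.2, 41.9 and 44.6 in Mll1KO, lower in each Mll1KO sample, and their part in the results was not tested. The 7 measured of 16 fibroblast, choroid and sclera markers gave 64.0, 56.6 and 74.1 in WT and 86.9, 91.5 and 88.8 in Mll1KO, led by Fbln1, while Dcn and Lum, which define fibroblasts, were not analysed here. The sums were higher in each Mll1KO sample, as Col1a2 and Col5a1 were, and the 4 genes called by limma were all higher. Without Fbln1 the sums overlapped, at 52.1, 45.0 and 57.0 in WT and 53.6, 56.9 and 54.6 in Mll1KO. Their part in the results was not tested. For 8 of 9 ciliary body and iris markers, which include Col9a1 itself and are led by Optc, the sums overlapped, at 175, 184 and 191 in WT and 183, 190.5 and 188 in Mll1KO. Without Col9a1 they were 134, 137 and 144 in WT and 124, 127 and 123 in Mll1KO, lower in each Mll1KO sample, with Optc, Zic1 and Rdh10 called lower and Wfdc1 called higher.

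For the tissue label, markers of horizontal and ganglion cells were looked at, and other retinal neurons are not described. Horizontal cell markers (8 of 10, led by Nefm) summed to 234, 234 and 222 RPKM in WT and 152, 149 and 148 RPKM in Mll1KO, 65.2% of the WT mean. Ganglion cell markers (10 of 11, led by Sncg) summed to 586, 544 and 572 RPKM in WT and 459, 409 and 382 RPKM in Mll1KO, 73.5% of the WT mean. Both sums were lower in every Mll1KO sample, and the lists share Nefm. Lens (2 of 21, led by Cryab) and erythrocyte genes (4 of 6, led by Hbb-bs) had overlapping groups, with lens sums of 45.0, 38.9 and 46.2 RPKM in WT and 64.1, 46.4 and 36.4 in Mll1KO. Of the corneal list only Pax6, which retinal neurons express, was measured.

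Genes that act around these proteins were counted from lists of collagen enzymes, proteoglycans, other glycoproteins, the dystrophin complex, integrin adaptors and proteases. Several of their genes are also markers above, among them Vtn, Fbln1 and the Müller glial markers Aqp4 and Kcnj10, both called higher in the dystrophin list. Together the lists hold 189 measured genes, of which 69 were called (36.5%), 37 higher and 32 lower. Of all genes 23.3% were called, 8.81% higher and 14.5% lower. Enzymes that modify and cross-link collagen had 2 higher and 2 lower of 26 (15.4%), a share below that of all genes, and 2 were called without WT sample a and 2 without Mll1KO sample b. The extremes were Loxl1, a lysyl oxidase, at 7.67, 6.85 and 8.70 RPKM in WT and 10.3, 11.6 and 10.5 in Mll1KO (log2 fold change 0.44 ± 0.079 (SE), limma adjusted p = 0.00373), and Pxdn, peroxidasin, which cross-links type IV collagen. Pxdn was at 9.80, 9.93 and 9.55 RPKM in WT and 7.81, 7.20 and 6.21 in Mll1KO, lower in each Mll1KO sample as Col4a1 and Col4a2 were (log2 fold change -0.42 ± 0.071 (SE), limma adjusted p = 0.00275).

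Matrix proteoglycans and link proteins had 7 higher and 7 lower of 24 (58.3%). Bcan, brevican of perineuronal matrix, was at 1.94, 2.32 and 2.30 RPKM in WT and 8.27, 5.70 and 7.65 RPKM in Mll1KO. All Mll1KO samples were far above WT (log2 fold change 1.35 ± 0.11 (SE), limma adjusted p = 4.53e-05). Podn, podocan, a small leucine-rich proteoglycan, was lowest in the list at 4.41, 4.30 and 4.10 RPKM in WT and 2.54, 2.78 and 2.86 in Mll1KO (log2 fold change -0.50 ± 0.057 (SE), limma adjusted p = 3.00e-04).

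Of 42 other matrix glycoproteins 10 rose and 7 fell (40.5% called). Fbln1, fibulin-1, which binds fibronectin and basement membranes, read 11.9, 11.6 and 17.1 RPKM in WT and 33.4, 34.5 and 34.1 RPKM in Mll1KO. WT sample c was above the other WT samples and far below Mll1KO (log2 fold change 1.29 ± 0.12 (SE), limma adjusted p = 8.51e-05). Slit2, a guidance ligand that binds heparan sulfate, was lowest at 15.7, 17.5 and 17.0 RPKM in WT and 9.92, 10.6 and 10.1 in Mll1KO, without overlap (log2 fold change -0.66 ± 0.052 (SE), limma adjusted p = 4.14e-05).

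In the dystrophin complex and dystroglycan glycosylation, 6 of 30 genes were called (20%, near the 23.3% of all genes), each of them higher, while the median log2 fold change of the list was -0.047 and the groups did not overlap in 7 higher and 8 lower genes (50%, and 41.1% in all genes). The highest was Sntg2, a syntrophin, at 3.55, 3.60 and 3.62 RPKM in WT and 6.31, 7.51 and 5.93 in Mll1KO (log2 fold change 0.72 ± 0.075 (SE), limma adjusted p = 1.83e-04). Integrin adaptors and kinases had 4 higher and 8 lower of 40 (30%), and the number called was 7 without WT sample a and 5 without Mll1KO sample c. Their extremes were Tns2, a tensin, at 3.74, 3.46 and 4.16 RPKM in WT and 5.30, 5.54 and 5.41 in Mll1KO (log2 fold change 0.42 ± 0.063 (SE), limma adjusted p = 0.00131), and the kinase Fyn, at 18.0, 17.9 and 18.8 RPKM in WT and 14.3, 15.1 and 14.8 in Mll1KO (log2 fold change -0.29 ± 0.043 (SE), limma adjusted p = 0.00136).

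Matrix proteases and their inhibitors had 8 higher and 8 lower of 27 (59.3%). Adamts1 and Adamts4, proteases that cut proteoglycans, were the extremes. Adamts1 was at 7.38, 5.13 and 7.02 RPKM in WT and 10.3, 9.95 and 9.22 in Mll1KO, higher in each Mll1KO sample (log2 fold change 0.54 ± 0.10 (SE), limma adjusted p = 0.00569). Adamts4 was at 2.04, 2.10 and 1.97 RPKM in WT and 1.05, 1.13 and 1.41 in Mll1KO, lower in each Mll1KO sample (log2 fold change -0.47 ± 0.066 (SE), limma adjusted p = 9.80e-04).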

How the data were processed

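Per the study's methods and the submitters' processing notes, the authors aligned reads with STAR 2.0.4b, counted them per gene with featureCounts (1.45), filtered genes on CPM and deposited RPKM, reads scaled to gene length and library total, on mm10. The log2 fold change, log2 CPM, p-value and FDR columns of the authors' own edgeR comparison were not used. The table held 11404 lines for 11339 genes (59 gene IDs were repeated with equal values), and 18 symbols turned into dates were restored. Whole reads were recovered from RPKM within 0.05 reads for 100.0% of genes, and the fewest reads of any of the 60 genes in a library were 101. Where the annotated exon length did not give whole reads, lengths were searched until one did, so the 100.0% is partly a product of the search. The annotated length was used for 53.4% of genes, and for 731 genes more than 1 length fitted.

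The unit being RPKM and not counts, genotypes were compared by limma 3.58.1 (R 4.3.3) on log2(RPKM + 1) with a variance trend and Benjamini-Hochberg adjustment over all genes. Coordinates and exon overlap came from GENCODE vM21, with 11329 IDs matched. Whether counting used strand is not given in the sources used here. Each of these genes is named; values per library are given, by role, for the first 30 that were called or whose call changed without 1 library, with the extremes of each related list and Kmt2a. Col11a1, Col4a3, Col8a1, Lamc1, members from Hspg2 onward, Cerkl and single marker genes were chosen after their values were seen. Members and lists were chosen with earlier results of these data known. Alternatives were pseudocounts of 0.1 and 5, a minimum mean RPKM of 1, TMM, median ratio and upper quartile scaling, limma-voom, other variance priors, a replicate block and each library left out.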

Additional observations from a re-analysis of the deposited data

How the results depend on the processing

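Of the 34 called genes, 29 were called in all 17 alternatives and 5 (Col12a1, Col6a1, Itga6, Itgb1 and Dag1) lost the call in some, while 9 others gained one in some. The number called of the 60 ran from 30 without WT sample a to 38 by limma-voom, and for the related lists from 49 to 72. TMM, median ratio and upper quartile scaling moved the median over the table from -0.030 to -0.0019, 0.00025 and -0.0033 on the log2 scale. Leaving out 1 library gave 1704 to 2536 called genes over the table, 1030 to 1559 of them lower, with the fewest without WT sample b (1704) and without Mll1KO sample c (1757). Leaving out both WT sample c and Mll1KO sample b, chosen after seeing the data, gave 1662, 935 of them lower; fewer samples entered these fits.

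Genes that were not called and changed sign without 1 library, with the range of their log2 fold changes, were Col4a3 (-0.062 to 0.18), Col16a1 (-0.028 to 0.12), Col15a1 (-0.020 to 0.088), Col6a4 (-0.081 to 0.031), Col8a1 (-0.18 to 0.28), Lamc1 (-0.079 to 0.0082), Itgb8 (-0.21 to 0.040) and Col4a3bp (-0.043 to 0.060). With WT sample c and Mll1KO sample b both left out, Col4a3 was at -0.046, Col8a1 at -0.19 and Col4a3bp at -0.018; the cause was not tested.

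For the letters a, b and c, deviations of samples with the same letter from their genotype means correlated at -0.039, -0.19 and -0.0071. No sample correlated best with its own letter. These correlations cannot decide whether samples with the same letter shared a litter or a preparation, because other differences between samples enter them too. With the letter as a replicate block, 2242 genes were called over the table, 31 of the 60 and 61 of the related lists; the log2 fold change of Kmt2a was -0.69. With 3 samples per genotype and at least 101 reads behind each value of the 60 genes, the spread between samples limits small differences such as those of Col6a1 and Itgb1. A gene that was not called is not shown to be equal in both genotypes.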

Other observations

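Other genes also stood apart in single libraries. By more than 0.5 on the log2 scale, 10 genes were higher in Mll1KO sample b than in any other library, 4 in WT sample c, 3 in Mll1KO sample a and none in the other 3 libraries. Itga3 was the only collagen, laminin or integrin gene among them. In Mll1KO sample b they included the interferon-induced genes Oasl2, at 3.29, 1.72 and 2.001 RPKM in WT and 2.12, 6.67 and 2.63 in Mll1KO, and Ifitm3, at 16.6, 10.4 and 17.1 in WT and 16.7, 28.4 and 18.9 in Mll1KO. The lens crystallin gene Cryaa was at 6.54, 6.61 and 7.51 RPKM in WT and 32.1, 12.4 and 7.28 in Mll1KO, high in Mll1KO sample a, and Myl9, a myosin light chain of smooth muscle, at 17.9, 12.8 and 27.2 in WT and 14.4, 13.7 and 13.7 in Mll1KO, high in WT sample c. These genes were chosen after their values were seen, and their part in the values of Itga3 and Col8a1 was not tested.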
